A study of Mus musculus with 4 samples.

Results

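A set of 10 genes by which capillary endothelial cells (ECs) release, take up and carry fatty acids were followed in lung ECs after pneumonectomy (PNX), the surgical removal of the left lung. The 10 symbols (Gpihbp1, Lpl, Cd36, Fabp4, Fabp5, Slc27a3, Slc27a4, Pparg, Meox2 and Tcf15) were taken by name from the 24063 in the tables, and each was represented by its most counted transcript, summed over the 4 libraries. All 10 passed the filter on low counts and were among the 16208 genes tested. The mice were C57BL6 (C57BL6J in the methods) and 8 weeks old. ECs were selected from the lungs with magnetic beads against CD31, from mice 7 days after the operation or after a sham operation (sham). Each group had 2 libraries, and each library pooled the cells of 2 mice, so that p-values measure the spread between pools.

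In capillaries, triglycerides of circulating lipoproteins are cut by lipoprotein lipase (LPL). The lipase is secreted mostly by cells outside the vessel and is carried across the endothelium and held at its luminal face by GPIHBP1. The freed fatty acids enter or cross ECs with the help of CD36, are bound in the cytoplasm by the fatty acid binding proteins FABP4 and FABP5, and are activated to acyl-CoA by transport proteins of the SLC27 family. The nuclear receptor PPARγ is a known activator of Cd36 and Fabp4, and MEOX2 and TCF15 are known as a pair of transcription factors that drive fatty acid uptake in heart ECs. In the lung, Gpihbp1 marks the general capillary cell, whereas Cd36, Fabp4, Fabp5, Pparg and Lpl are also known in alveolar macrophages.

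The counts with 1 transcript per gene came to between 41367438 and 50952879 per library, so that 3 counts, the smallest level taken as detectable, lay between 0.0589 and 0.0725 CPM, counts scaled to library size (counting error only). The methods give male mice, but the 44 chromosome Y genes had 0 counts in each library and Xist had between 31872 and 33792 normalized counts in both groups, which goes against that description for all 4 libraries. Pecam1, which encodes the selected CD31, and Cdh5 (VE-cadherin) were high, with mean FPKM (fragments counted, scaled to transcript length and library size) of 373.8 and 375.8 in sham. The fraction also held RNA that defines other cells. Sftpc, the surfactant gene of alveolar type 2 cells, had a mean FPKM of 2893 in sham and 1889 after PNX, and Lyz2 of myeloid cells, named after its value was seen, 1859 and 2156. Ptprc, which encodes the leukocyte protein CD45, had 28.2 and 28.3. In such bulk samples, fewer cells of a type and less RNA per cell cannot be told apart.

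Compared per length, the 10 genes spanned more than 3 orders of magnitude. The mean FPKM in sham libraries was 541 for Cd36, 208 for Gpihbp1, 59.6 for Lpl, 27.9 for Fabp5 and 22.4 for Fabp4. Cd36 was 27th and Gpihbp1 166th in level among the genes tested. The others were lower, at 9.28 for Pparg, 5.85 and 6.14 in its libraries for Slc27a4, 4.70 for Meox2, 3.87 for Slc27a3 and 0.406 for Tcf15. In sham each gene was separated from the next in this order by more than the range of its libraries. The order was the same after PNX, but the steps were not. Fabp5 reached a mean FPKM of 58.9 beside 59.4 for Lpl, and Slc27a4 (6.65 and 6.73) and Meox2 (6.09 and 6.67) overlapped. Cd36 made up 61.0% to 61.6% of the summed FPKM of the 10 genes in sham libraries and 52.2% to 52.4% after PNX, while Fabp5 went from 3.16% to between 8.49% and 8.53% and Fabp4 from between 2.50% and 2.57% to between 7.40% and 7.48%.

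**Figure D1:**
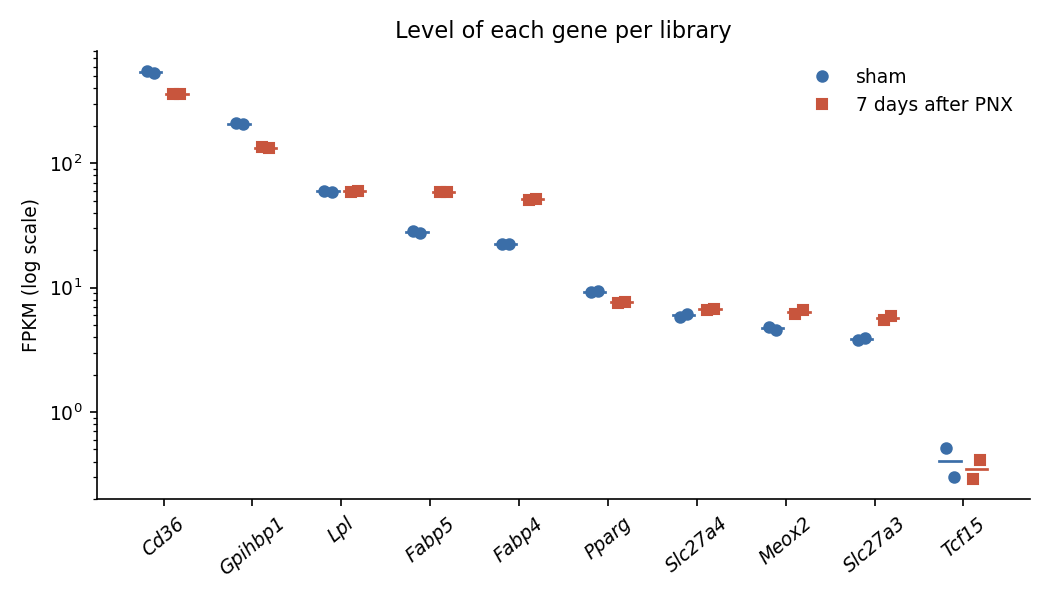
Deposited FPKM (vertical axis, log scale) of each of the 10 genes in the 2 sham (circles) and 2 post-PNX libraries (squares), with the group mean as a line. Cd36 and Gpihbp1 lie lower after PNX, Fabp5 and Fabp4 come close to Lpl, and the libraries of a group nearly coincide except for Tcf15.

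The genes did not move together. In post-PNX ECs 5 of the 10 were higher (Fabp4, Fabp5, Slc27a3, Meox2 and Slc27a4) and 3 lower (Gpihbp1, Cd36 and Pparg) at an adjusted p under 0.01, and Lpl and Tcf15 did not pass. Of all genes tested, 29.3% were higher and 27.8% lower by this rule, so that a call by itself says little here and the sizes carry the description. The median log2 fold change of the 10 genes was 0.07 against 0.00 over all genes tested. With a log2 fold change beyond 1 required as well, 2 genes were higher, Fabp4 and Fabp5, and 0 lower, against 5.9% and 1.66% of all genes. The count of 0 was also 0 by DESeq2 and at an unadjusted p under 0.05 in edgeR. This followed from the sizes whatever the p, since the lowest log2 fold change of the 10 was -0.64 (Gpihbp1). By role, under the main scaling (TMM), the genes of lipolysis and entry at the capillary wall fell or did not pass. All 4 genes of binding and activation inside the cell rose, though Slc27a4 was not called by DESeq2 (adjusted p = 0.03).

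**Figure D2:**
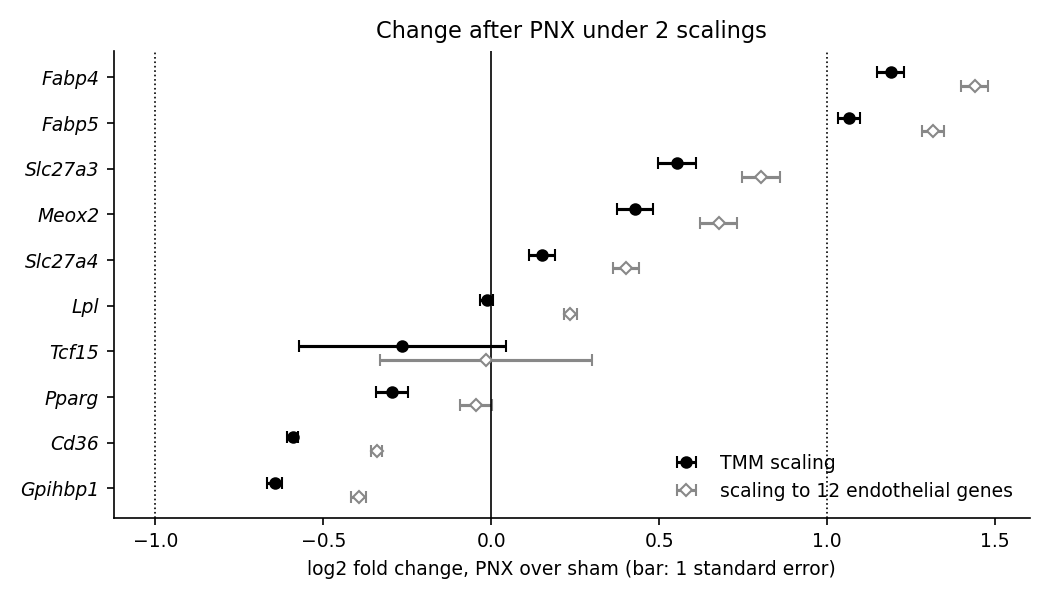
Log2 fold change (horizontal axis) of each gene after PNX over sham, with 1 standard error, under TMM scaling (filled circles) and under scaling to 12 endothelial marker genes (open diamonds); dotted lines mark a 2-fold change. Fabp4 and Fabp5 lie beyond 1 under both scalings, Gpihbp1 and Cd36 lie below 0 under both, and Lpl and Pparg depend on the scaling.

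Gpihbp1, whose product anchors LPL on the capillary surface, had 12281 and 12083 normalized counts in sham and, after PNX, 7814 and 7772. Both post-PNX libraries lay well below both sham libraries. The mean went from 12182 ± 140 to 7793 ± 29.9 (SD, n = 2), which is 36.0% lower, with a log2 fold change of -0.64 (standard error 0.022, edgeR adjusted p = 3.5e-35). The gene lies on chromosome 15 from 75596630 to 75598213 (GRCm38).

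Lpl (chromosome 8, 68880555 to 68906932), which encodes the lipase itself, had 17923 and 17619 normalized counts in sham and 17529 and 17674 after PNX. The groups overlapped. The log2 fold change was -0.01 (standard error 0.019, edgeR adjusted p = 0.54), and its standard error is small beside the change of Gpihbp1. With Gpihbp1 lower and Lpl at its level, the FPKM of Lpl per FPKM of Gpihbp1 rose in value from 0.287 and 0.287 in the sham libraries to 0.442 and 0.448 after PNX, 1.55-fold between the means. This ratio is taken within a library and does not depend on the scaling between libraries. With 2 libraries against 2, an exact permutation test cannot give a two-sided p below 0.333, so ratios are given as values only.

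Cd36 (chromosome 5, 17781690 to 17888959), the scavenger receptor that takes up long-chain fatty acids, had 140128 and 134916 normalized counts in sham and 91209 and 91333 after PNX. The libraries of the groups were far apart. The mean went from 137522 ± 3685 to 91271 ± 87.4 (SD, n = 2), which is 33.6% lower, with a log2 fold change of -0.59 (standard error 0.016, edgeR adjusted p = 2.0e-40). Its 5 RefSeq transcripts, which differ at their 5′ ends, had between 154577 and 154680 counts in the first sham library, so that the tables cannot show a switch of start site. Cd36 and Gpihbp1 fell by a like factor, and the FPKM of Cd36 per FPKM of Gpihbp1 was 2.64 and 2.58 in sham and 2.70 and 2.71 after PNX.

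Cd36 is the highest of the 10 genes and a known target of PPARγ, and the receptor's own gene, Pparg, was lower as well. Fabp4, also a known target, rose (log2 fold change 1.19). Pparg was not called under scaling to the endothelial genes (-0.04, edgeR adjusted p = 0.4), and a link between these changes was not tested. The 250 bases before start sites of Cd36 and Pparg are shown (RefSeq, GRCm38.p6). PPARγ binds DNA as a pair with RXR, at 2 copies of AGGTCA with 1 base between them. Capitals mark AGGTCA, or TGACCT where it lies on the other strand. The only window given for Cd36 is at chr5:17835897-17836146 on the minus strand. It lies inside the span of the gene, so starts of Cd36 further upstream are not covered. The window of 1 of the 3 starts given for Pparg is at chr6:115362099-115362348 on the plus strand.
Cd36: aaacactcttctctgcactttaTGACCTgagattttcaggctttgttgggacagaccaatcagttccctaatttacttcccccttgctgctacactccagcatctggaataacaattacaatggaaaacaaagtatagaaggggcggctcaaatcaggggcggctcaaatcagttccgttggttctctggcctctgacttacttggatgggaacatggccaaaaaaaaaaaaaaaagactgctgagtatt
Pparg: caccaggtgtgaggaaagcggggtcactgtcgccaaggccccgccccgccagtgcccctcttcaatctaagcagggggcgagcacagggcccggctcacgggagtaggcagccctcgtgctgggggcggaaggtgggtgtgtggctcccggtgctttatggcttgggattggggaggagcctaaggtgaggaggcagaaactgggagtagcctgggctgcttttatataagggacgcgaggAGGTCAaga
The half-site AGGTCA, searched on both strands, begins 228 bases before this start of Cd36 and 9 bases before this start of Pparg. Of the other 2 starts given for Pparg, 1 has the half-site 28 bases before it and 1 has none in its window. The half-site occurs in 14.0% of the 32851 promoter windows of this length in the table. The windows of Meox2, Slc27a3 and Slc27a4 do not hold these letters. The full repeat, with any base between the copies, was in 0.0335% of all windows and in none of those of the 5 genes matched. Gpihbp1, Lpl, Fabp4, Fabp5 and Tcf15 had no window and were not searched. These are matches of letters and not measured binding.

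Fabp4, the fatty acid binding protein shared by capillary ECs, adipocytes and macrophages, showed the largest rise of the 10 genes. It had 1059 and 1057 normalized counts in the sham libraries and 2396 and 2432 after PNX. Both post-PNX libraries lay far above both sham libraries, at a mean of 2414 ± 25.9 against 1058 ± 1.36 (SD, n = 2). The log2 fold change was 1.19 (standard error 0.041, edgeR adjusted p = 9.0e-35), a 2.28-fold rise.

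Fabp5, of the same family and found in ECs, epithelium and macrophages, had 1988 and 1933 normalized counts in sham and 4085 and 4125 after PNX. It rose 2.09-fold, with a log2 fold change of 1.06 (standard error 0.032, edgeR adjusted p = 1.3e-37). Fabp4 and Fabp5 lie close to each other on chromosome 3, Fabp5 from 10012585 to 10016610 and Fabp4 from 10204342 to 10208616, and the FPKM of Fabp4 per FPKM of Fabp5 went only from 0.792 and 0.813 to 0.872 and 0.877. Set against the receptor at the cell surface, the change was larger. The FPKM of Fabp4 per FPKM of Cd36 was 0.0407 and 0.0422 in sham and 0.141 and 0.143 after PNX, 3.44-fold between the means, and for Fabp5 this was 3.15-fold. Fabp5 shares stretches of at least 200 bases at 95% identity or more with 2 other annotated genes, Gm14328 and Gm6166 (GENCODE M21), between which its reads could have been split. The other 9 genes had no such copy, and none of the 10 shared exon bases with another gene.

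**Figure D3:**
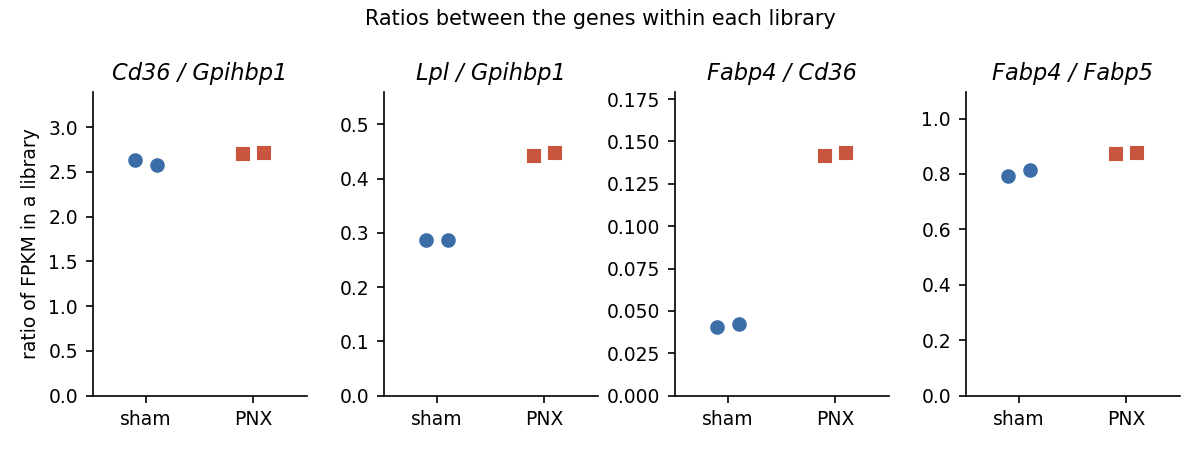
Ratio of FPKM between pairs of the genes within each library (vertical axes, from 0), for 2 sham (circles) and 2 post-PNX (squares) libraries. Cd36 per Gpihbp1 stays between 2.58 and 2.71, whereas Lpl per Gpihbp1 and Fabp4 per Cd36 are higher in both post-PNX libraries.

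The SLC27 proteins couple uptake of a fatty acid to its activation. Slc27a3 (chromosome 3, 90385230 to 90390835) had 631 and 661 normalized counts in sham and 918 and 979 after PNX. It rose by 46.8%, with a log2 fold change of 0.55 (standard error 0.057, edgeR adjusted p = 6.2e-13), and the groups did not overlap. Slc27a4, which has been tied to fatty acid transport across ECs (chromosome 2, 29802634 to 29817522), had 1728 and 1812 in sham and 1950 and 1977 after PNX. Its rise was smaller, 1.11-fold, with a log2 fold change of 0.15 (standard error 0.039, edgeR adjusted p = 6.0e-04). This call was lost with DESeq2 (adjusted p = 0.03) and without the first sham library (log2 fold change 0.11, edgeR adjusted p = 0.028).

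Among the transcription factors, Pparg (chromosome 6, 115360879 to 115490404) had 1255 and 1283 normalized counts in sham and 1018 and 1052 after PNX. It was 18.5% lower, with a log2 fold change of -0.29 (standard error 0.048, edgeR adjusted p = 2.2e-07). Its 2 transcripts in the tables, which belong to the forms PPARγ1 and PPARγ2, had 1385 and 1376 counts in the first sham library, and with counts so alike the forms cannot be told apart. Meox2 (chromosome 12, 37108540 to 37179534) moved the other way, from 833 and 792 to 1046 and 1148, a log2 fold change of 0.43 (standard error 0.054, edgeR adjusted p = 3.1e-10). Tcf15 (chromosome 2, 152143056 to 152149097), the partner of MEOX2 in heart capillaries, was near the limit of the depth, with 39 and 20 counts in sham and 20 and 25 after PNX. The groups overlapped, and a log2 fold change of -0.27 with a standard error of 0.31 (edgeR adjusted p = 0.46) leaves its direction undetermined. Without the first sham library the value was 0.20.

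Since most genes that mark ECs as a whole were lower after PNX, the 10 genes were also set against these markers. The 12 endothelial marker genes summed to 562742 and 568079 normalized counts in sham and to 474798 and 475984 after PNX, and 10 of the 12 were lower and 1 higher. Pecam1, the gene of the selected protein, had a log2 fold change of -0.01 (edgeR adjusted p = 0.64). Scaling the libraries to these genes moved the median of all genes by 0.25 on the log2 scale, and each of the 10 genes by about as much. By this scaling edgeR called 9409 of the 16208 genes tested higher and 1466 lower. Gpihbp1 and Cd36 were still lower, with log2 fold changes of -0.39 and -0.34 (edgeR adjusted p = 4.9e-16 and 1.6e-17), while Pparg was at -0.04 (edgeR adjusted p = 0.4). Lpl was higher under this scaling, at 0.24 (edgeR adjusted p = 3.9e-12), which is about the size of the shift. Fabp4 and Fabp5 stood at 1.44 and 1.31.

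Markers of the capillary types moved with these values. Of 11 general capillary genes, a list that holds Gpihbp1, 10 were lower and 1 higher, with a median log2 fold change of -0.41, and their sum went from 435304 to 435409 in sham to between 330902 and 332622. Plvap, which forms the diaphragms of endothelial pores, fell from 372 to 239 in mean FPKM, while Sparcl1 rose from 154.5 to 176.2. Of 11 aerocyte genes, which mark the other capillary type of the lung, 8 were lower and 3 higher, with a median of -0.40. In that list Car4 rose (log2 fold change 0.24) and Cyp4b1 had the largest fall (-1.08). Scaled to the endothelial genes, the medians of these capillary lists were -0.16 and -0.15, with 7 and 6 genes lower.

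Several other cell types known to express some of the 10 genes also shifted, and their part in the changes was not tested. For alveolar macrophages 6 of 12 genes were higher and 5 lower, with a median log2 fold change of 0.11. The sum of that list rose in value from between 125967 and 127166 to between 263371 and 267391, mostly by Chil3 (66525 and 66208 normalized counts in sham, 190320 and 185561 after PNX, named after its values were seen), and its defining genes went apart, since Marco rose (log2 fold change 2.99) and Siglecf and Ear1 fell (-0.56 and -1.09). In the wider macrophage and monocyte list 8 of 9 genes were higher and 0 lower by edgeR, with a median of 0.86 and C1qb at 2.98. None of the 9 was lower at an unadjusted p under 0.05 or by DESeq2. For cavity macrophages 7 of 8 genes were higher, led by Cd5l at 5.55, and 1 was lower (median 1.36). The lower one, Icam2 (-0.08), is also 1 of the 12 endothelial markers and made up most of this list's sum. In sham it had 21939.5 and 21843.4 of the summed 25753.5 and 25761.9 normalized counts.

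Adipocytes express Fabp4, Pparg, Cd36 and Lpl at high levels. Adipoq, the gene that defines them, had 1 count in each sham library and 83 and 93 counts after PNX, and Plin1 had 7 and 7 against 45 and 34. Fabp4 had 1169 and 1037 counts in those sham libraries and 2438 and 2183 after PNX. Whether adipocytes had a part in this rise was not tested. Of the 8 adipocyte genes tested 4 were higher and 2 lower, and their sum, most of it Lipe, was between 5714 and 5957 in sham and between 5344 and 5363 after PNX. Platelets carry CD36. Of 9 platelet genes 4 were higher and 0 lower (median 0.27, Pf4 1.34), against 29.3% and 27.8% of all genes tested. Their part in the change of Cd36 was not tested. None of the platelet genes was lower at an unadjusted p under 0.05 or by DESeq2.

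Of 9 genes of alveolar type 2 cells and lipofibroblasts 6 were lower and 2 higher (median -0.45), with Sftpb at -0.65, close in size to Gpihbp1 and Cd36. Fibroblast genes (6 of 7 higher, median 2.27) and mesothelial genes (5 of 5 higher, median 1.08) rose, and pan-leukocyte genes had 3 of 5 higher and 1 lower (median 0.16), with Ptprc at -0.00.

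**Figure D4:**
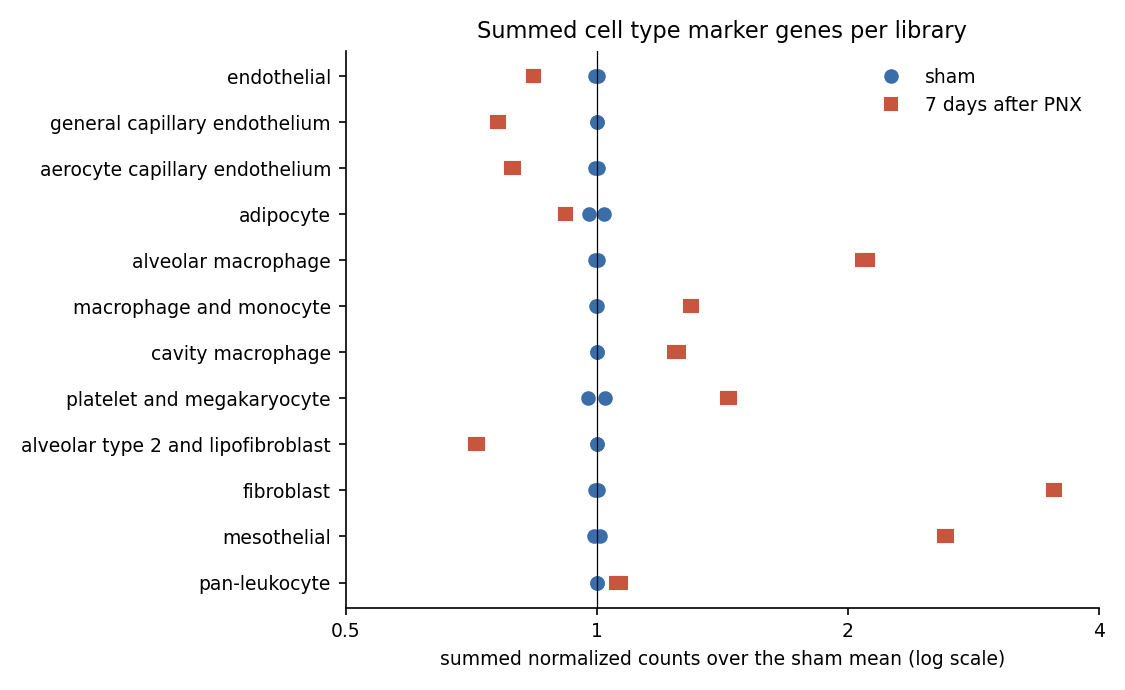
Summed normalized counts of each cell type marker list per library, divided by the sham mean (horizontal axis, log scale), for 2 sham (circles) and 2 post-PNX (squares) libraries. The endothelial, both capillary and the alveolar type 2 sums lie below 1 after PNX, and fibroblast, mesothelial and alveolar macrophage sums lie highest.

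The other genes of fatty acid handling were taken from 6 lists with 112 genes, of which 104 were tested. Among these 35 were higher (33.7%) and 30 lower (28.8%), close to the shares over all genes, with a median log2 fold change of 0.02. The lists differed in direction. Of the 21 regulators and partners of LPL 12 were higher and 1 lower, with a median of 0.24. Of the 21 receptors and regulators of the programme 2 were higher and 12 lower, with a median of -0.15. Among those lower was Aplnr (-0.45), which is also in the list of general capillary markers.

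Among the partners of LPL, Angptl4, which unfolds and inactivates the lipase and is itself a PPAR target, rose from 1280 and 1269 normalized counts to 2147 and 2163 (log2 fold change 0.76, standard error 0.040, edgeR adjusted p = 3.4e-25). Apoc2, the cofactor that activates LPL, rose by 0.61 on the log2 scale from a mean FPKM of 2.25. Apoe, the ligand by which lipoprotein remnants are cleared and an abundant product of macrophages, rose most, from a mean FPKM of 136 to 363 (log2 fold change 1.41). Lmf1, needed for the folding of LPL, and Lipg, the endothelial lipase, did not pass (log2 fold changes 0.10 and -0.01). The only gene lower was Gpld1, a phospholipase that releases proteins from the lipid anchor that GPIHBP1 also has (-0.24). Under scaling to the endothelial genes edgeR called 18 of the 21 higher and 0 lower (19 and 0 at an unadjusted p under 0.05), with Gpld1 at 0.01. That scaling moved all genes upward, and of all 16208 genes tested 9409 were then higher and 1466 lower.

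Around the members at the membrane and in the cytoplasm, 14 further genes of transport, binding and caveolae were tested, of which 4 were higher and 5 lower. The caveolar genes Cav1, Cav2 and Cavin2 fell, with log2 fold changes of -0.27, -0.61 and -0.18, while Cavin1 rose by 0.18. Under scaling to the endothelial genes Cav1 was not called (-0.02, edgeR adjusted p = 0.22) and Cavin2 turned to 0.07 (edgeR adjusted p = 0.0034), while Cav2 was still lower (-0.36). Cav2 fell by a factor close to that of Cd36, which is known to reside in caveolae, while Cav1 and Cavin2 fell less and Cavin1 rose. A link between Cd36 and the caveolar genes was not tested. In the family of binding proteins, Fabp1, found in alveolar macrophages among other cells, fell from 955 and 907 normalized counts to 477 and 491 (-0.95). Slc27a6 rose (0.75). Named after their values were seen, Fabp7 rose from 7 and 5 counts to 106 and 77, and Fabp12 fell from 57 and 56 counts to 16 and 17.

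Of the 23 genes of lipid droplets and lipolysis inside the cell 6 were higher and 9 lower. The lipases that empty the droplet, Pnpla2, Lipe and Mgll, had log2 fold changes of -0.33, -0.33 and -0.36. Of these Pnpla2 was named after its value was seen. Lipa, the lipase of the lysosome, rose by 0.37. Under scaling to the endothelial genes Pnpla2, Lipe and Mgll stood at -0.08, -0.08 and -0.11, and Lipe was not called (edgeR adjusted p = 0.029). Hilpda, an inhibitor of Pnpla2's product that also marks general capillary cells, dropped by 0.73, and Lpin1, a phosphatase of triglyceride synthesis, dropped by 0.57. Plin2, which coats droplets, rose by 0.26 and Plin4 by 0.58, the latter not called by DESeq2 (adjusted p = 0.011). Of 7 acyl-CoA synthetase genes 3 were lower, Acsl3, Acss1 and Acss2 (log2 fold changes -0.24, -0.35 and -0.31), and 1 was higher, Acsl5 (0.08). Under scaling to the endothelial genes 3 of the 7 were higher and 0 lower by edgeR (1 lower at an unadjusted p under 0.05), with Acsl3, Acss1 and Acss2 at 0.01, -0.10 and -0.06. The median of all genes was then 0.25. DESeq2 called neither Acsl5 (adjusted p = 0.02) nor Acsl3 (adjusted p = 0.012), and Acsl5 was also not called without sham replicate 1 or without PNX replicate 1 (edgeR adjusted p = 0.013 and 0.012).

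In fatty acid oxidation 10 of 18 genes were higher and 0 lower by edgeR, with 1 lower at an unadjusted p under 0.05 and 0 lower by DESeq2. The changes were small, with a median of 0.09. Scaled to the endothelial genes, 17 of the 18 were higher, with a median of 0.34. Of all 16208 genes tested 9409 were higher under this scaling, with a median of 0.25. Cpt1a, which controls entry of fatty acids into mitochondria, rose by 0.07, Acadl by 0.35 and Cpt1c by 0.81, the last from 275 and 272 normalized counts. Cpt1a was not called by DESeq2 (adjusted p = 0.049), with counts summed over transcripts (edgeR adjusted p = 0.022), or without sham replicate 2 or PNX replicate 2 (edgeR adjusted p = 0.045 and 0.069).

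Several regulators that work with PPARγ or upstream of uptake were lower. Nrip1 and Ncor1, corepressors of nuclear receptors, fell too, with log2 fold changes of -0.54 and -0.26. Of these, Ncor1 was not called under scaling to the endothelial genes (-0.01, edgeR adjusted p = 0.65), while Nrip1 was still lower (-0.29). Ppargc1a, a coactivator of PPARγ and of oxidative metabolism, fell from 146 and 165 normalized counts to 60.9 and 79.1 (log2 fold change -1.16), and Klf15, a regulator of lipid use, from 1027 and 1107 to 396 and 425 (-1.38). Rxra, the partner of PPARγ, had a log2 fold change of -0.08 whose call was lost by DESeq2 (adjusted p = 0.054) and with any library left out, and which turned to 0.17 under scaling to the endothelial genes (edgeR adjusted p = 6.0e-07). Flt1 and Nrp1, receptors of VEGF-B, a growth factor known to drive endothelial fatty acid uptake, fell with log2 fold changes of -0.53 and -0.42, while Vegfb itself rose by 0.27, a call lost by DESeq2 (adjusted p = 0.022). Rxra and Vegfb were named after their values were seen. Under scaling to the endothelial genes the medians of the lists of transport, synthetases, droplets and regulators were 0.17, 0.01, 0.21 and 0.10. Their sign changed with the shift of all genes, and they stayed below the median of all genes, 0.25. By this scaling 9 regulators were higher and 8 lower, against 9409 and 1466 of 16208 genes, while Klf15 was at -1.13.

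**Figure D5:**
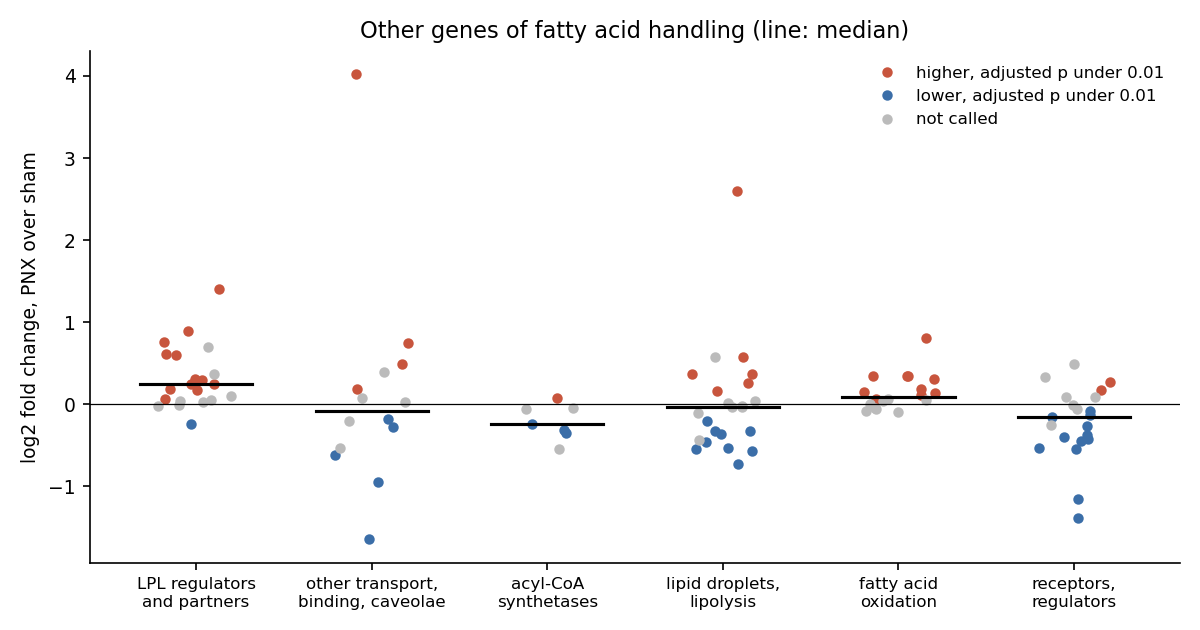
Log2 fold change (vertical axis) of 104 tested genes of fatty acid handling in 6 lists; each point is a gene, coloured by its call at an adjusted p under 0.01, and the line is the list's median. Partners of LPL and oxidation genes lie mostly above 0, and receptors and regulators mostly below.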

How the data were processed

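RNA sequencing of mouse lung ECs (2 sham and 2 post-PNX libraries, each from 2 pooled mice) was used as deposited, with 1 table per library. The authors deposited raw counts per RefSeq transcript, with FPKM and TPM beside them (33068 transcripts). STAR and mm10 are named in the submitters' processing notes, whereas the counting program, its strand setting and the versions are not given in the sources used here. Transcripts of a gene were counted over the same reads, so the transcript with the most counts was kept for each of 24063 symbols. TPM was not used, and FPKM served for levels and ratios only.

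Counts of 16208 genes kept by filterByExpr were scaled by TMM and tested with the quasi-likelihood F test of edgeR 4.0.16 in R 4.3.3, with Benjamini-Hochberg adjustment over all of them. A gene was called at an adjusted p under 0.01. Normalized counts are counts scaled to a common library size. The steps were tested on simulated data. Replicates of a group differed beyond counting noise (mean chi-square per gene 1.77 and 1.53), but the median SD of log2 normalized counts within a group was only 0.036. Small p-values rest on this narrow spread between 2 pools per group and do not measure the spread between single mice. The alternatives were other scalings, filters, thresholds, summed transcripts, DESeq2 1.42.0, a replicate block and each library left out.

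The members and lists were chosen with earlier results of these data known. The genes named were all 10 members, all tested partners of LPL, of each other pathway list the 3 with the highest mean and the 3 with the largest change among those averaging 100 normalized counts or more, and of each marker list its first 2 genes and its highest and lowest log2 fold change. Any other gene is said to be named after its values were seen. Lists covered LPL partners, transport, synthetases, droplets, oxidation and regulators, and markers of endothelium, general capillary, aerocyte, adipocyte, alveolar macrophage, macrophage and monocyte, cavity macrophage, platelet, alveolar type 2, fibroblast, mesothelial and pan-leukocyte cells.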

Additional observations from a re-analysis of the deposited data

How the results depend on the processing

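Gpihbp1, Cd36, Fabp4, Fabp5, Meox2 and Slc27a3 kept their direction and call under all 12 alternatives run. Scaling to the endothelial markers, which moved all genes by 0.25 on the log2 scale, gave 65 pathway genes higher and 18 lower (35 and 30 with TMM), put Lpl at 0.24 (edgeR adjusted p = 3.9e-12) and Pparg at -0.04 (0.4), and changed the genome-wide split from 4745 higher and 4513 lower to 9409 and 1466. Slc27a4 was not called by DESeq2 (0.15, adjusted p = 0.03) or without sham replicate 1 (0.11, edgeR adjusted p = 0.028). With each library left out, Tcf15 ranged from -0.59 to 0.20, the latter without sham replicate 1, and it was not tested with a mean of at least 50 counts. A replicate block left 5 members higher and 3 lower and changed no member's call. The numbers share only a name, since differences between replicates 1 and 2 in both groups had a correlation of 0.03 over genes and the pools came from different mice. DESeq2 called 3497 genes higher and 3275 lower. Where Tcf15 stands, with 20 to 39 counts per library, the depth limits what can be seen.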
